A study of Owenia fusiformis with 26 samples.

Results

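AP2 (OFUSG17466) and irxA (OFUSG05354) are genes for 2 patterning transcription factors of Owenia fusiformis, an oweniid annelid whose embryo cleaves spirally and develops into a mitraria larva. They were taken by their gene identifiers and make up 2 of the 26966 genes in the expression table. AP2 is represented by 4 transcripts and irxA by 1, and both genes were among the 23934 that passed the filter on low values. The study chose both genes because drug treatments changed them in other embryos, and it placed both among genes expressed at the posterior tip and chaetae of the larva.

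AP2 proteins bind DNA as dimers through a basic helix-span-helix domain. In vertebrates they are regulators of the epidermis and the neural crest, and AP2 genes are active in ectoderm in many animals. Iroquois proteins such as irxA carry a homeodomain of the TALE class. In Drosophila, Iroquois genes act upstream of proneural genes in the dorsal part of the body and of imaginal discs, and in vertebrates they take part in neural patterning. In O. fusiformis the 4d cell, a micromere of the posterior quadrant that is specified at the coeloblastula stage, is the putative embryonic organiser.

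Bulk RNA-seq was available for 24 libraries from whole, untreated animals, with 2 replicates at each of 12 stages. The series began with the unfertilised oocyte and the zygote and covered cleavage with embryos of 2, 4 and 8 cells and embryos collected 3 and 4 hours post fertilisation (hpf). It went on through the blastula (5 hpf), the gastrula (9 hpf) and axial elongation (13 hpf), and closed with larvae, early at 18 hpf and mature at 27 hpf. No genotype, agent or sorted cell type distinguished the groups, and the labels did not say whether replicates came from separate spawnings, so the p-values measure only the spread between these libraries. Values are read counts that were estimated per transcript and scaled between libraries. Here they are called normalised expression and were summed over the transcripts of a gene. One read was worth an estimated 0.958 to 1.61 units, and the depth was estimated at 22400000 to 37100000 reads per library. Values were not divided by transcript length, so the levels of AP2 and irxA are not compared with each other.

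Both genes were low up to 5 hpf, at an estimated 0 to 94.2 reads per library, and abundant from 9 hpf onwards. AP2 was highest in the gastrula at 4554 ± 206 (SD, n = 2), and its mean at 27 hpf was 41.5% of that. irxA was at 2721 ± 309 in the gastrula, which was 62.0% of its highest mean, 4391 ± 137 (SD, n = 2) in the mature larva. The libraries hold whole animals, so more cells that express a gene and more RNA per cell cannot be told apart.

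**Figure D1:**
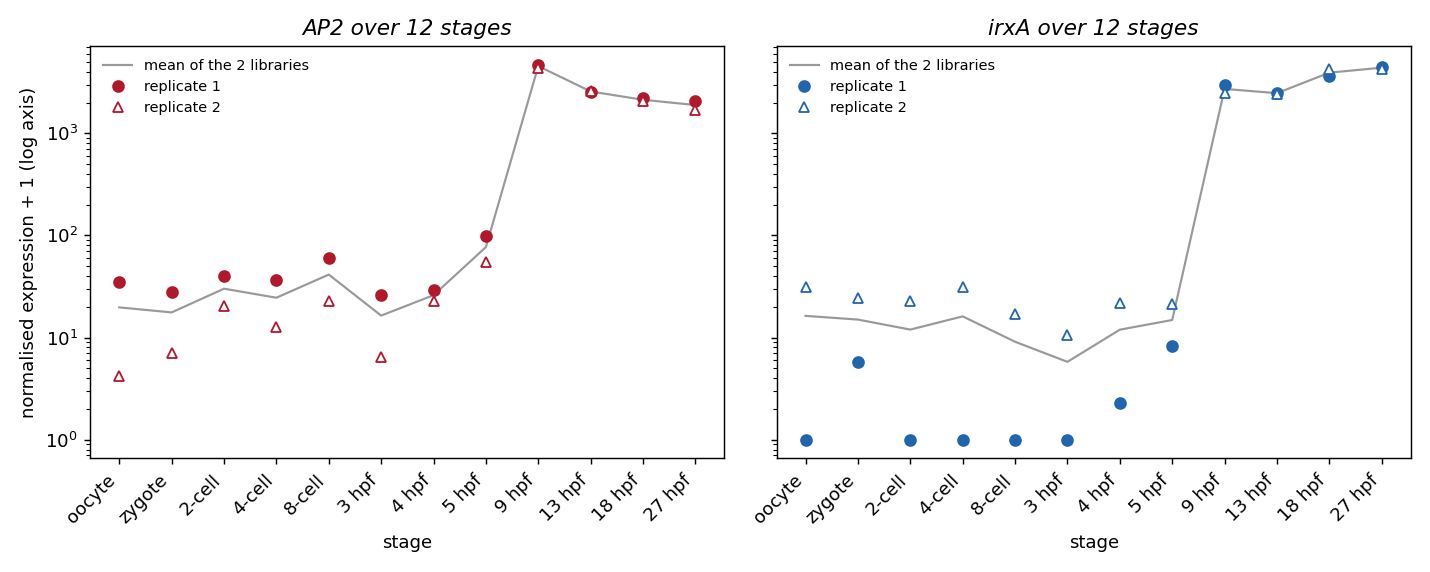
Normalised expression plus 1 of AP2 and irxA on a log axis against stage, with a filled circle for replicate 1, an open triangle for replicate 2 and a grey line through the mean of both. All 8 libraries from 9 hpf onwards lie above all 16 libraries up to 5 hpf for both genes, and the replicates stand apart before 9 hpf in opposite order for the 2 genes.

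AP2 was detected at low levels in every library before gastrulation. Its normalised expression was 34.2 and 3.22 in the oocyte (replicates 1 and 2), 27.1 and 6.10 in the zygote, 38.97 and 19.2 at the 2-cell stage, 35.4 and 11.6 at the 4-cell stage and 58.7 and 21.97 at the 8-cell stage. It was 25.3 and 5.46 at 3 hpf and 28.3 and 21.6 at 4 hpf. Neighbouring stages overlapped throughout this period, although both libraries of 3 hpf were lower than those of the same replicate number at the 8-cell stage. At 5 hpf AP2 stood at 98.1 and 53.6, and both blastula libraries were above both libraries of 4 hpf. The share of all genes with such a separation at this step was not counted. The log2 fold change of 1.51 (SE 0.92, 95% interval -0.43 to 3.46) did not pass the test at this step, with a limma adjusted p of 0.881. Between 4 and 5 hpf 1.27% of all genes tested passed in either direction.

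Before gastrulation irxA was low as well. It was listed at 0 in 5 of the 16 libraries up to 5 hpf, namely replicate 1 of the oocyte, the 2-cell, 4-cell and 8-cell stages and 3 hpf. The remaining replicate 1 libraries held 4.79 in the zygote, 1.29 at 4 hpf and 7.31 at 5 hpf. Replicate 2 lay between 9.56 at 3 hpf and 30.6 in the oocyte, with 20.6 at 4 hpf and 20.4 at 5 hpf. These libraries had at most an estimated 26.1 reads of irxA, and the stages did not separate. Between 4 and 5 hpf the libraries of irxA overlapped, and the log2 fold change of 0.92 (SE 1.95, limma adjusted p = 1) did not pass the test. The step from 3 to 4 hpf did not pass for either gene (log2 fold changes of 0.98 for AP2 and 1.11 for irxA, limma adjusted p = 1 for each), where 0.639% of all genes passed.

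The 2 genes differed in which replicate held their early signal. AP2 was higher in replicate 1 at 8 of 8 stages up to 5 hpf, with means over those stages of 43.3 in replicate 1 and 17.8 in replicate 2. Of all genes tested, 17.8% were higher in replicate 1 at all 8 of these stages. irxA was higher in replicate 2 at 8 of 8 stages, with means of 1.67 and 21.6, and 18.4% of all genes showed that order. Such an order was therefore common in the table. The study calls the 2 libraries of a stage biological replicates, and what else distinguishes those numbered 1 from those numbered 2 is not given. The replicate number was fitted only as a block in an alternative described below. Its part in the early values of AP2 and irxA was not itself tested.

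Between the blastula and the gastrula both genes rose. By in situ hybridisation the study saw no AP2 at 5 hpf, and AP2 in posterior ectoderm soon afterwards, still at the coeloblastula stage. It reported irxA in dorsal ectoderm at that stage. No library here falls between 5 and 9 hpf. AP2 went from 98.1 and 53.6 at 5 hpf to 4700 and 4408 at 9 hpf. The ratio of the means was 60.02, and the log2 fold change was 5.95 (SE 0.92, 95% interval 4.00 to 7.90, limma adjusted p = 0.000148). irxA went from 7.31 and 20.4 to 2939 and 2503, a ratio of the means of 197. Its log2 fold change was 7.67 (SE 1.95, 95% interval 3.53 to 11.8, limma adjusted p = 0.00709). The call for irxA was lost with a pseudocount of 0.1 (limma adjusted p = 0.0969) and without replicate 1 of 5 hpf (log2 fold change 6.99, limma adjusted p = 0.0543), and it held in the other 9 alternatives.

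The rise took place on a background of widespread change. Between 5 and 9 hpf 29.5% of all genes tested passed the test, and 18% passed as higher at 9 hpf. The median log2 fold change over all genes was 0.40, far below that of either member. A further scaling by trimmed mean of M-values (TMM) shifted the log2 fold changes of all genes by a median of -0.32. It took the share of calls that were higher from 61.0% to 46.7%, and under it the log2 fold changes were 5.63 for AP2 and 7.36 for irxA. Measured from 4 hpf, before the specification of 4d, the log2 fold change was 7.47 for AP2 (SE 0.92, limma adjusted p = 1.02e-05) and 8.59 for irxA (SE 1.95, limma adjusted p = 0.00232). From 4 to 9 hpf 25.1% of all genes passed as higher, and the call for each member held in all 11 alternatives. The size for irxA rested on the libraries of 4 hpf, with 6.97 without replicate 1 and 10.2 without replicate 2.

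The separation of the early from the late libraries was wide for both genes. The lowest AP2 value from 9 hpf onwards, 1703 in replicate 2 of 27 hpf, was 17.4 times the highest value up to 5 hpf. For irxA the lowest late value, 2442 in replicate 2 of 13 hpf, was 79.8 times the highest early one, replicate 2 of the oocyte. Every late library lay above every library up to 5 hpf for 18.4% of all genes tested, so such a separation was common.

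After gastrulation the stage means of the 2 genes took different courses. The change of irxA relative to AP2 from 9 to 27 hpf did not pass in the fit of all 24 libraries (limma adjusted p = 0.669). AP2 went from 4700 and 4408 in the gastrula to 2552 and 2584 at axial elongation, 2195 and 2064 in the early larva and 2077 and 1703 in the mature larva. Both libraries of each stage were below both of the stage before, except that replicate 1 of 27 hpf lay between the libraries of 18 hpf. Both libraries of 9 hpf lay above every later one for 14.8% of all genes, AP2 among them. irxA stood at 2939 and 2503 in the gastrula, 2500 and 2442 at axial elongation, 3608 and 4245 in the early larva and 4488 and 4294 in the mature larva. Its libraries at 18 and 27 hpf were all above those at 9 and 13 hpf, as were those of 18.3% of all genes tested. The libraries of neighbouring stages did not overlap at any of the 3 steps, which held for 19.5% of all genes. However, replicate 2 of 9 hpf and replicate 1 of 13 hpf were almost level (2503 and 2500). Replicate 2 of 18 hpf and replicate 2 of 27 hpf were close as well (4245 and 4294).

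**Figure D2:**
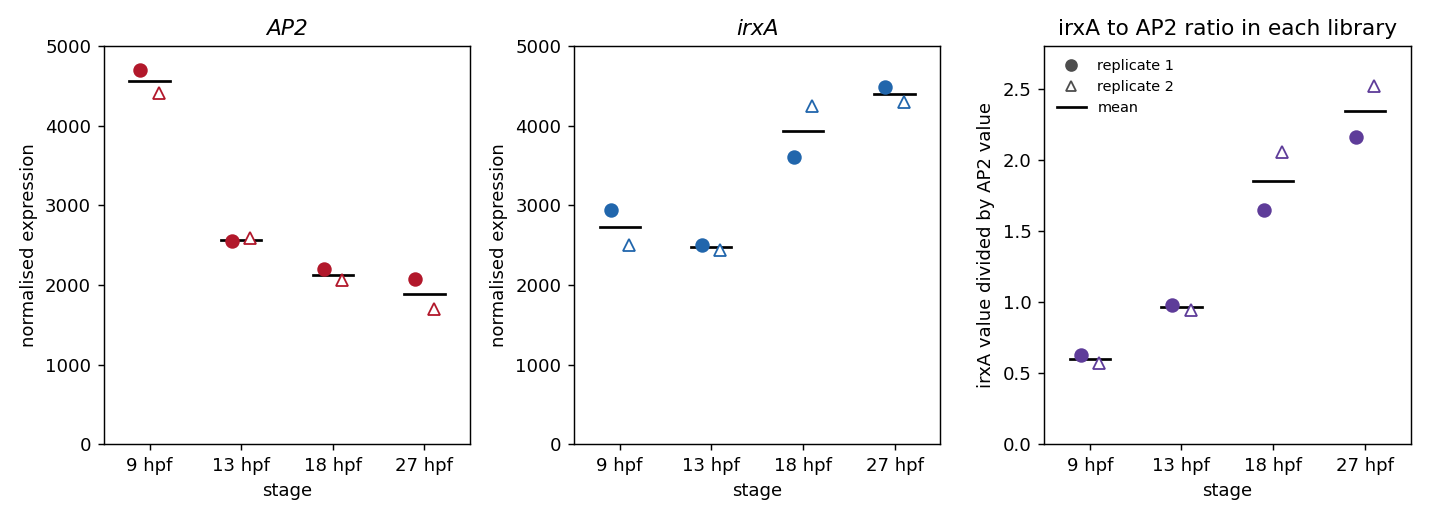
Normalised expression of AP2 (left) and irxA (middle) at the 4 stages from 9 hpf, and the irxA value divided by the AP2 value of the same library (right), on linear axes that start at 0. Filled circles are replicate 1, open triangles replicate 2 and bars their mean. AP2 is highest at 9 hpf, irxA at 18 and 27 hpf, and the ratio is higher at each stage than at the one before in every library.

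In the limma fit over all 24 libraries no late difference passed, and none had an unadjusted p under 0.05. From 9 to 27 hpf the log2 fold change of AP2 was -1.27 (SE 0.92, 95% interval -3.22 to 0.67, unadjusted p = 0.184, limma adjusted p = 0.315). That of irxA was 0.69 (SE 1.95, 95% interval -3.45 to 4.84, unadjusted p = 0.727, limma adjusted p = 0.832). In that comparison 35.2% of all genes passed, 15.1% as lower and 20.1% as higher at 27 hpf. The standard error of this fit is shared by all stages, so that the distance between replicates at low early values enters it. The late replicates of AP2 differed by an SD of 264 or less and those of irxA by 451 or less.

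A fit of the 8 libraries from 9 hpf alone, chosen after the data were seen, gave the same fold changes with standard errors of 0.18. In that fit AP2 was lower at 27 than at 9 hpf (95% interval -1.70 to -0.85, limma adjusted p = 0.000798), a call shared with 17.4% of all genes. irxA was higher at 27 than at 9 hpf (95% interval 0.28 to 1.11, limma adjusted p = 0.0149), as were 26% of all genes. With the libraries of 9 and 27 hpf alone, where the share of all genes passing was not counted, AP2 also passed (limma adjusted p = 0.00884) and irxA did not. The calls for the late courses therefore rest on which libraries set the error.

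Most of the fall of AP2 lay between 9 and 13 hpf. Its log2 fold change over that step was -0.83, with a limma adjusted p of 0.808 in the fit of all libraries and 0.0239 in the fit of the 8 late ones, where 1.96% of all genes passed as lower (2.13% with all libraries). The later steps of AP2, -0.27 from 13 to 18 hpf and -0.18 from 18 to 27 hpf, passed in neither fit. For irxA the largest late step was 0.66 from 13 to 18 hpf (limma adjusted p = 0.981 over all libraries and 0.0813 over the 8 late ones). Its steps of -0.13 from 9 to 13 hpf and 0.17 from 18 to 27 hpf passed in neither fit. In the fit of all libraries 6.32% of genes passed from 9 to 13 hpf, 2.64% from 13 to 18 hpf and 3.72% from 18 to 27 hpf. In that of the 8 late libraries the shares were 11%, 5.25% and 4.16%.

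**Figure D3:**
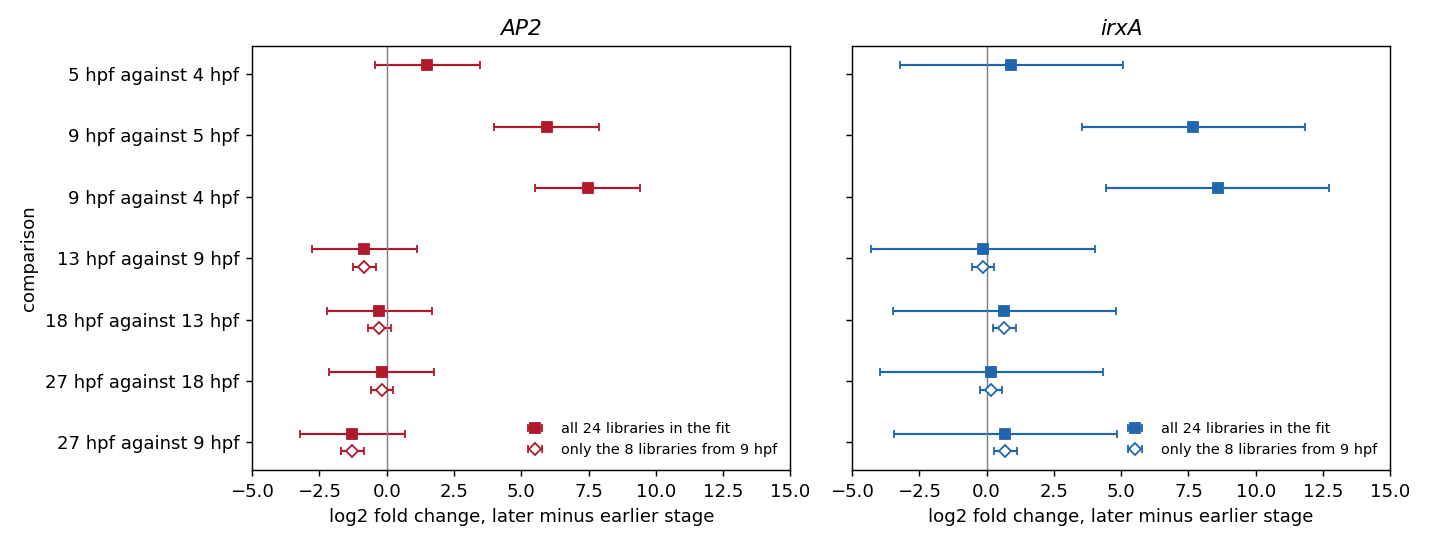
Log2 fold change of AP2 and irxA (later minus earlier stage) with 95% intervals for 7 comparisons. Filled squares are from the fit of all 24 libraries and open diamonds from the fit of the 8 libraries from 9 hpf, which leaves each estimate in place and shortens its interval.

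The order of the stage means summarised these patterns. For AP2 the 4 late stages ran 9, 13, 18 and 27 hpf from high to low, followed at a distance by 5 hpf, and the libraries of 18 and 27 hpf overlapped. For irxA the order was 27, 18, 9 and 13 hpf. The 8 early stage means of irxA ran from 4.78 at 3 hpf to 15.3 in the oocyte, in an order that the spread of the replicates did not resolve. Relative to its own highest mean, the level at 5 hpf was 1.67% for AP2 and 0.315% for irxA. Of all genes tested, 14.7% had their highest mean at 9 hpf like AP2, and 26.9% at 27 hpf like irxA.

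The change of irxA was then set against that of AP2 within each library. The irxA value divided by the AP2 value was 0.625 and 0.568 in the gastrula libraries, 0.979 and 0.945 at axial elongation, 1.64 and 2.06 in early larvae and 2.16 and 2.52 in mature larvae. The ratio was higher at each stage than at the one before in both replicates, and no stages overlapped, as for 16.4% of all other genes set against AP2. Only its change can be read, since values were not divided by length.

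Across all 24 libraries, irxA gained on AP2 by 1.97 on the log2 scale from 9 to 27 hpf (95% interval -3.37 to 7.31, limma adjusted p = 0.669), which did not pass. Of all other genes, 14.9% differed from AP2 over this interval, 14.4% by a more positive change. In the fit of the 8 late libraries the same gain had a 95% interval of 1.48 to 2.45 (limma adjusted p = 7.4e-05), where 56.3% of genes differed from AP2, 52.6% by a more positive change. From 9 to 13 hpf the gain was 0.69 (limma adjusted p = 0.937 over all libraries and 0.0391 over the late ones, with 0.422% and 30.6% of genes passing, 0.418% and 30.3% by a more positive change). From 5 to 9 hpf the log2 fold change of irxA exceeded that of AP2 by 1.72, with a 95% interval of -3.62 to 7.06 (limma adjusted p = 0.519). It was 0.61 without replicate 1 of 5 hpf and 2.83 without replicate 2. In that step 87.7% of genes differed from AP2, nearly all by a smaller rise or a fall, and 0.109% by a more positive change.

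AP2 was recorded as 4 transcripts, OFUSG17466.1 to OFUSG17466.4, which were quantified separately. Reads from sequence that transcripts share are divided among them by the quantifier's model, so the values of single transcripts are less certain than their sum. Up to 5 hpf OFUSG17466.3 lay between 21.8 and 88.7 in replicate 1 and between 0 and 36.5 in replicate 2. It was listed at 0 in 3 of these 16 libraries, namely replicate 2 of the oocyte, the 8-cell stage and 3 hpf, where OFUSG17466.4 held the whole AP2 value. OFUSG17466.1 was listed at 0 in all 16, OFUSG17466.2 in 10 and OFUSG17466.4 in 12.

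All 4 transcripts rose between 5 and 9 hpf. The log2 fold change was 6.37 for OFUSG17466.2 (SE 1.23, limma adjusted p = 0.00123) and 5.54 for OFUSG17466.3 (SE 1.79, limma adjusted p = 0.0318). OFUSG17466.1 and OFUSG17466.4 were listed at 0 in both libraries of 5 hpf, so no fold is given for them, and both passed (limma adjusted p = 4.57e-06 and 0.000135). At 9 hpf they stood at 213 ± 213 and 451 ± 434 (SD, n = 2). Their early values of 0 enter the error of the fit, so these p-values do not measure the spread at 9 hpf alone. Of all transcripts tested, 16.2% passed as higher in this step. From 9 to 27 hpf none of the 4 passed, with unadjusted p-values of 0.213 or more, while 18.9% of all transcripts passed as higher and 13.4% as lower.

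OFUSG17466.3 stood at 2271 and 3209 in the gastrula, 1023 and 1490 at axial elongation, 646 and 738 in the early larva and 528 and 546 in the mature larva. OFUSG17466.2 stood at 1306 and 993 in the gastrula, 450 and 387 at axial elongation, 719 and 804 in the early larva and 1055 and 793 in the mature larva. The gastrula and the mature larva did not overlap for OFUSG17466.3 and overlapped for OFUSG17466.2. Levels of different transcripts are not compared, since their lengths are not known here, and only the change of each over the stages can be read.

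As shares of the gene sum, not corrected for length, OFUSG17466.3 made up 60.6% ± 17.3 in the gastrula, 48.9% ± 12.4 at axial elongation, 32.6% ± 4.48 in the early larva and 28.7% ± 4.66 in the mature larva (SD, n = 2). OFUSG17466.2 made up 25.2% ± 3.73 in the gastrula, 16.3% ± 1.88 at axial elongation, 35.9% ± 4.401 in the early larva and 48.7% ± 3.04 in the mature larva. The shares of OFUSG17466.2 at 27 hpf, 50.8% and 46.5%, lay above those of all other libraries from 9 hpf, and those of OFUSG17466.3 at 9 and 27 hpf did not overlap either. How often the shares of other transcripts separate in this way was not counted. In the test of transcript use by limma diffSplice, none of the 4 passed from 9 to 13 hpf or from 9 to 27 hpf, and none had an unadjusted p under 0.05. From 9 to 27 hpf OFUSG17466.3 changed by -2.11 on the log2 scale relative to the other transcripts (limma diffSplice adjusted p = 0.530) and OFUSG17466.2 by 0.57 (adjusted p = 0.961). Both rest on single libraries of 9 hpf: without replicate 1 the values were -3.25 and 0.032, and without replicate 2 they were -0.98 and 1.11. These stand against 8.58% of all transcripts tested that passed (1.9% from 9 to 13 hpf). Over the 8 late libraries the adjusted p for OFUSG17466.3 was 0.122, and 13.2% of transcripts passed.

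OFUSG17466.4 differed between replicates at every late stage. It stood at 758 and 144 in the gastrula, 976 and 509 at axial elongation, 795 and 424 in the early larva and 361 and 184 in the mature larva. Replicate 1 was higher at all 4 stages, whereas OFUSG17466.3 was higher in replicate 2 at all 4. Such an order was common: counted on gene sums, 19.3% of all genes tested were higher in replicate 1 at all 4 stages and 20.4% in replicate 2. OFUSG17466.1 lay between 34.9 and 364 in the late libraries, with 364 and 62.6 in the gastrula. The replicates were closer in the gene sum than in its division among the transcripts.

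**Figure D4:**
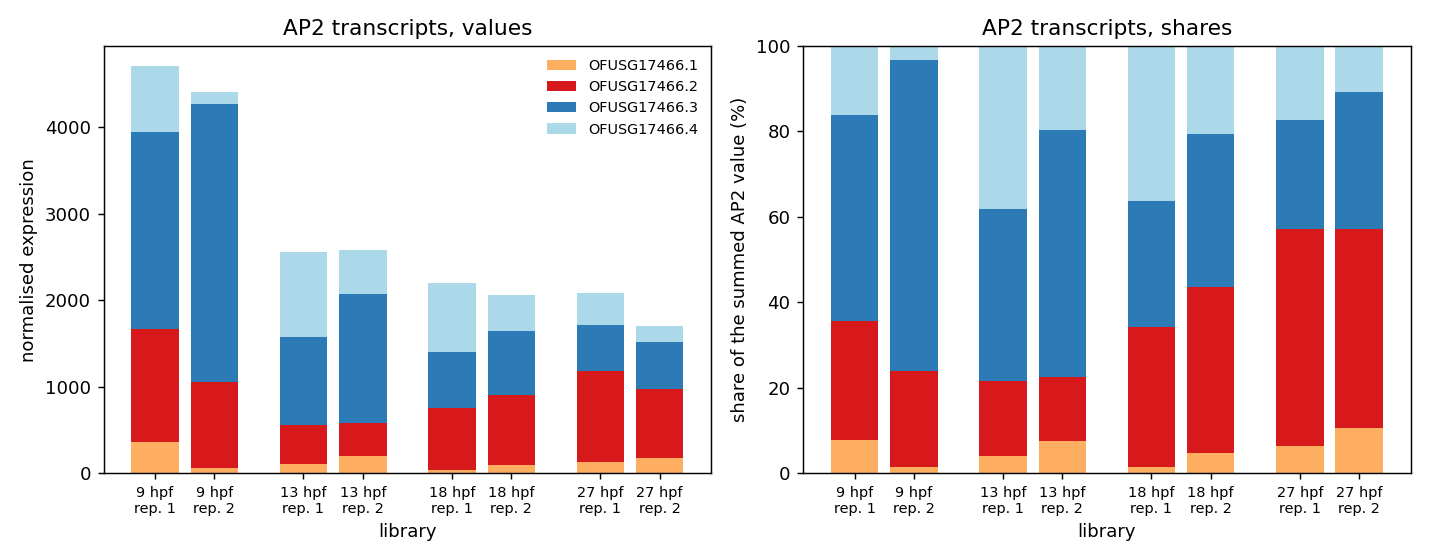
Normalised expression of the 4 AP2 transcripts (left) and their share of the summed AP2 value in percent (right), as stacked bars for each library from 9 hpf. The share of OFUSG17466.3 is smaller in both libraries of 27 hpf than in both of 9 hpf and that of OFUSG17466.2 larger, and OFUSG17466.4 is larger in replicate 1 than in replicate 2 at every stage.

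The posterior and chaetal grouping of AP2 and irxA holds 7 further candidate genes. From 5 to 9 hpf 4 of the 7 rose. These were wnt1, a Wnt ligand (log2 fold change 5.67, limma adjusted p = 0.000251), lhx1/5, a LIM homeobox gene (4.11, limma adjusted p = 1.22e-05), fer3, a bHLH factor (2.86, limma adjusted p = 0.0428), and delta, a Notch ligand (0.78, limma adjusted p = 0.0237). notch-like (1.54), msx2-a (2.73) and wnt4 (3.38) did not pass. The median of the 7 was 2.86, beside 0.40 over all genes tested, of which 18% passed as higher. The log2 fold changes of both members lay above those of all 7, and the differences between genes were not tested. Among the study's candidates outside this grouping, hand2 rose by more than both members (8.59). The mesodermal candidates foxH (7.08) and POU3 (6.65) rose by more than AP2 but less than irxA, and the rest stood below both members.

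The stage of the highest mean differed among the 7. Like AP2, wnt1, fer3 and delta had their highest mean at 9 hpf, while notch-like and wnt4 shared 27 hpf with irxA, and lhx1/5 and msx2-a were highest at 18 hpf. Only delta passed between 9 and 27 hpf in the fit of all libraries, at -1.14 (limma adjusted p = 0.00162), while 35.2% of all genes tested passed. Over all 20 other candidates of the study, 13 rose from 5 to 9 hpf and 7 did not pass, with a median log2 fold change of 3.67. Among all genes tested, 18% passed as higher in that step and the median was 0.40. The study chose the candidates by the effect of drugs on other embryos, and the counts are a description.

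Of 5 genes of ectoderm patterning and BMP signalling, named by their best BLAST match in the study's table, TBX3-like (8.01), GATA2/3-like (5.18) and Distal-less-like (4.41), all transcription factors, rose from 5 to 9 hpf on the log2 scale by limma, BMP7-like fell (-0.64) and BMP4-like stood at -1.85 without passing (limma adjusted p = 0.0782). In the same step 18% of all genes passed as higher and 11.5% as lower. Of 4 proneural and Notch pathway genes, HES4-like rose (1.23) and amos-like (1.38), HES1-like (2.88) and DLL4-like (3.31) did not pass. From 4 to 5 hpf amos-like (3.95), HES1-like (5.23) and HES4-like (1.76) had already risen by limma, as had 1.19% of all genes, in a step in which neither member passed. All 3 chitin synthase-like genes, which encode enzymes of the kind that build chaetal chitin, rose from 5 to 9 hpf (2.55 to 7.62).

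The genes most like each member over development were sought among 17154 others whose highest stage mean was at least 100. Likeness was the Pearson correlation of log2(mean + 1) over the 12 stage means, which come from the same 24 libraries. For AP2 the first was hand2, a bHLH factor of mesoderm (r = 0.996), and the next OFUSG09638 (r = 0.994). After hand2, wntA (r = 0.987) and wnt1 (r = 0.978) were the most alike among the study's candidates. Like AP2, hand2 was highest at 9 hpf and fell to lower means at 13, 18 and 27 hpf, 1707, 1464, 655 and 499 in turn.

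For irxA the first genes were OFUSG10690 (r = 0.996) and OFUSG24187 (r = 0.994), and among the candidates gsc (r = 0.994), cdx (r = 0.992) and wntA (r = 0.984). gsc, a homeobox gene of the oral ectoderm, held a level course with means of 2810, 3052, 2583 and 2856 from 9 to 27 hpf, and cdx, a ParaHox gene of the hindgut, was higher at 18 and 27 hpf (3879 and 3558) than at 9 and 13 hpf (1805 and 1983), as irxA was. The correlation between AP2 and irxA was 0.974, which ranked 272 for AP2 and 537 for irxA. A shared rise at 9 hpf is enough for a high value, and 6.17% of the genes had r over 0.95 with AP2 and 9.86% with irxA. On the linear scale, where the late stages weigh more, the correlation of AP2 with irxA was 0.791, that of AP2 with wnt1 0.995 and that of irxA with cdx 0.987.

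**Figure D5:**
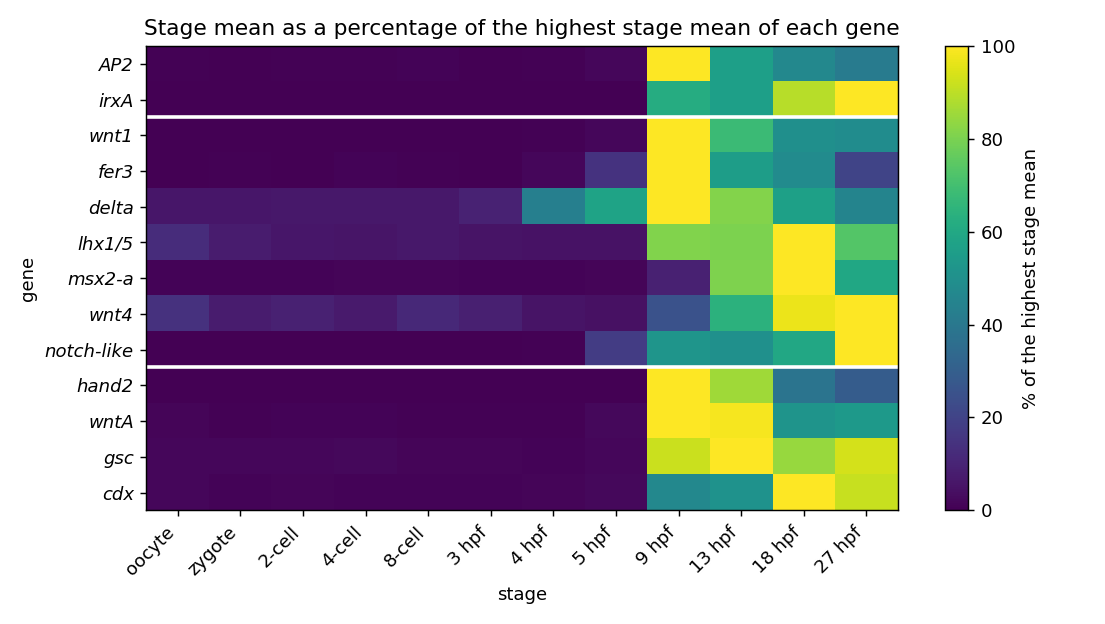
Stage means as a percentage of the highest stage mean of each gene, from 0% (dark) to 100% (yellow), for AP2 and irxA (top), the 7 other posterior and chaetal candidates (middle) and the 4 remaining candidates most like a member (bottom), against stage. AP2 and irxA are dark up to 5 hpf, AP2 is brightest at 9 hpf together with wnt1, fer3, delta, hand2 and wntA, and irxA is brightest at 27 hpf.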

How the data were processed

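RNA-seq libraries of 24 samples were used. The authors deposited 1 table of normalised signal for 31903 transcripts. The submitters' processing notes name kallisto 0.46.2 and DESeq2 1.30.1 without their roles. The median ratio of a library to the geometric mean over libraries was the same in every library, a property of size-factor scaling, and nothing in the values pointed to a scaling by transcript length. Of its columns, 3 matched no sample and were not used, and columns named for 16 and 32 cells were taken as 3 and 4 hpf. The 2 ATAC-seq samples were not used here, because no table placed the genes on the scaffolds of the peaks, and no sequence was printed.

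Transcripts were summed by gene. Genes with at least 10 in 2 or more libraries were kept. limma 3.58.1 in R 4.3.3 was run with a trend on log2(value + 1) with stage as the only term, on all 24 libraries and all genes kept, with Benjamini-Hochberg adjustment and a threshold of 0.05. A log2 fold change on this scale understates the change of low genes. A count test was not used because whole reads could not be recovered in every library: between 56.1% and 99.7% of low values lay within 0.1 of a whole read. Intervals are 95%. Transcript use was tested with diffSplice. irxA was set against AP2 by subtracting the log2 value of AP2 from every gene. Scripts were tested on simulated data.

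Members and gene lists were chosen with earlier results of these data known. Named genes were the members, every listed gene and, for each member, the 2 most alike genes and the 3 most alike candidates. Alternatives were TMM scaling, no filter, pseudocounts of 0.1 and 10, no trend, only the stages compared, a replicate block, each replicate left out and transcripts on their own.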

Additional observations from a re-analysis of the deposited data

How the results depend on the processing

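The rise of AP2 from 5 to 9 hpf and from 4 to 9 hpf and the rise of irxA from 4 to 9 hpf kept their direction and their call in all 11 alternatives run on the gene sums. The rise of irxA from 5 to 9 hpf lost its call with a pseudocount of 0.1 (log2 fold change 7.78, limma adjusted p = 0.0969). It also lost its call without replicate 1 of 5 hpf (log2 fold change 6.99) and kept it in the other 9 alternatives. Over single replicates left out its log2 fold change ranged from 6.99 to 8.35. With only the libraries of the stages compared, AP2 passed from 9 to 27 hpf (-1.27). In these fits irxA relative to AP2 passed from 5 to 9 hpf (1.72, limma adjusted p = 0.0333) and from 9 to 27 hpf (1.97). The share of all genes passing in these fits was not counted. The pass from 5 to 9 hpf rests on irxA at an estimated 7.01 and 18.9 reads at 5 hpf. In the fit of all libraries its limma adjusted p was 0.519, where 87.7% of genes differed from AP2. Over single replicates left out of that fit the value ranged from 0.61 to 2.83. With only the 8 libraries from 9 hpf, an alternative chosen after seeing the data, AP2 passed from 9 to 13 hpf (-0.83) and from 9 to 27 hpf (-1.27), irxA from 9 to 27 hpf (0.69), and irxA relative to AP2 from 9 to 13 hpf (0.69) and from 9 to 27 hpf (1.97). Leaving out single replicates turned the direction of results that had not passed: AP2 from 3 to 4 hpf (-0.032 to 1.99), irxA from 3 to 4 hpf (-0.59 to 2.81) and from 4 to 5 hpf (-0.69 to 2.54), and transcript use from 9 to 13 hpf of OFUSG17466.1 (-0.47 to 1.29) and OFUSG17466.3 (-2.12 to 0.15) and from 9 to 27 hpf of OFUSG17466.4 (-0.27 to 1.31). Transcripts on their own turned from the gene sum, without passing, for OFUSG17466.1 from 18 to 27 hpf (1.38) and 9 to 27 hpf (0.025), OFUSG17466.2 from 13 to 18 hpf (0.86) and 18 to 27 hpf (0.27), and OFUSG17466.4 from 3 to 4 hpf (-1.35) and 9 to 13 hpf (1.09). The causes were not tested. TMM scaling shifted the log2 fold changes of all genes by a median of -0.35 from 4 to 9 hpf and of -0.17 from 9 to 27 hpf. Under it the share of calls that were higher was 51.8% in place of 64.0% from 4 to 9 hpf, and 56.0% in place of 66.4% from 9 to 13 hpf.

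Samples with the same replicate number deviated together in 57 of 66 pairs of stages (correlation over 0.1). The correlation was 0.409 to 0.692 between stages up to 5 hpf, 0.259 to 0.471 between stages from 9 hpf, and 0.0392 to 0.314 across the 2 periods. Since not every pair passed, the fit without the number was kept as the main one. With the number as a replicate block the log2 fold changes were unchanged, and the limma adjusted p was 2.35e-06 for AP2 (5.95) and 0.00017 for irxA (7.67) from 5 to 9 hpf and 0.35 for AP2 from 4 to 5 hpf. No call of a member changed under the block. The early values of irxA rest on few reads, and 2 replicates per stage limit every late comparison.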
